A study of Mus musculus with 12 samples.

Results

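The 10 genes described here encode the enzymes of O-GlcNAc cycling and of the hexosamine pathway in cultured mouse astrocytes: Ogt, Mgea5, Gfpt1, Gfpt2, Pgm3, Uap1, Uap1l1, Nagk, Gnpda1 and Gnpda2. They were taken by symbol from a deposited table of 54532 genes, and Mgea5 is the older symbol of Oga. All 10 were found, and 10 of 10 passed the filter for testing (at least 1 FPKM in at least 2 of 12 libraries), which 14014 genes passed in all. FPKM are fragments scaled to the length of the gene and to the size of the library, so levels of different genes can be compared on that scale.

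O-GlcNAc is a single sugar placed on serines and threonines of nuclear and cytoplasmic proteins by 1 enzyme, Ogt, and taken off by 1 other, Mgea5. Its donor, UDP-GlcNAc, is made from fructose 6-phosphate and glutamine by the hexosamine pathway. Gfpt1 and Gfpt2 make glucosamine 6-phosphate, the first committed step, Pgm3 moves the phosphate of N-acetylglucosamine 6-phosphate, and Uap1 joins the sugar to UDP. Uap1l1 is a paralog of Uap1. Nagk returns free N-acetylglucosamine to the pathway, and Gnpda1 and Gnpda2 turn glucosamine 6-phosphate back into fructose 6-phosphate. Ogt and Mgea5 transcripts are known to follow O-GlcNAc levels in opposite directions in many cells.

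RNA was sequenced from astrocytes, support cells of the brain, grown from adult C57BL/6 mice (cortex and hippocampus), in 6 groups of 2 libraries. The cKO experiment compared a conditional knockout (cKO) of Ogt with its control, both from mice aged 4 months. The genotype field reads Glast-CreERT2::Ogtfloxp/Y for cKO and control libraries alike, and the groups are told apart by the sample titles, which call the controls WT, and by the descriptions, which call them Ogt cKO controls. Glast is an astrocyte gene whose driver expresses a tamoxifen-dependent Cre, and no tamoxifen is described. The AD experiment compared untreated astrocytes of a mouse model named 5X APP with untreated wild-type ones, at 6 months per the sample labels and 5 months per the series text. The Aβ experiment compared wild-type astrocytes of mice aged 2 months without and with amyloid-beta 1-42 (Aβ) at 20 µM for 72 hours, written as 73 hours on 1 sample. The labels do not say whether libraries of a group came from separate animals, so the p-values measure only the spread between libraries, which may be technical.

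The libraries held 16418852 to 18705309 reads in genes, and the 10 genes had 80 to 4459 reads each per library. The counting error was at most 11.2%, for Gnpda2 in the library where it was lowest, and covers counting only. Each group held transcripts of other cell types than astrocytes. The summed level of 8 astrocyte markers was 395 to 449 FPKM in the cKO control, 88.1 to 100.4 in the Ogt cKO, 354 to 422 in the AD control, 218 to 232 in the AD model, 104 to 108 in the Aβ control and 72.4 to 157 in the Aβ-treated libraries. In the same order, the sum of 10 microglia and macrophage markers was 7156 to 9184, 3115 to 4169, 1113 to 1652, 3599 to 5777, 2350 to 3921 and 4927 to 6514 FPKM. The sum of 8 pericyte and smooth muscle markers was 502 to 1004, 4007 to 4055, 1705 to 3801, 208 to 755, 3580 to 4080 and 419 to 485 FPKM. The sum of 8 oligodendrocyte lineage markers was 153 to 318, 49.1 to 53.9, 145 to 155, 306 to 350, 48.1 to 60.03 and 142 to 254 FPKM. The neuronal markers summed to at most 0.378 FPKM in any library, and Snap25 was at 0 in the cKO experiment. In bulk RNA of this kind, fewer cells of a type and less RNA per cell cannot be told apart.

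The promoters of 4 genes are shown: Ogt and Mgea5, which add and remove the sugar, and Pgm3 and Uap1 of the donor pathway. Pgm3 and Uap1 passed the test in both the cKO and the Aβ experiments, higher in the first and lower in the second. Gfpt2, also of the donor pathway, passed in both too, higher in each, and its promoter is not shown. Other pairs of the 10 genes had levels as alike over the libraries, Mgea5 and Gnpda2 among them. Each is the 250 bases before the transcription start in RefSeq (GRCm38.p6), 5′ to 3′ on the gene's strand, from chrX:101639801-101640050 (+ strand) for Ogt, chr19:45783554-45783803 (− strand) for Mgea5, chr9:86571843-86572092 (− strand) for Pgm3 and chr1:170174965-170175214 (− strand) for Uap1. Capitals mark matches, on either strand, to 6 motifs: the E-box CACGTG, the cyclic AMP response element TGACGTCA, the NRF1 core GCATGCGC, the GC box GGGCGG, the CCAAT box, and the XBP1 core TGACGTGG.
Ogt: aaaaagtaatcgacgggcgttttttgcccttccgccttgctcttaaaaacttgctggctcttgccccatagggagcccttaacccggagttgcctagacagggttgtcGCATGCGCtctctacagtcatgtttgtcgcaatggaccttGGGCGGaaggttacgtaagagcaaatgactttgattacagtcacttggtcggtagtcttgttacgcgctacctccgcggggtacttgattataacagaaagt
Mgea5: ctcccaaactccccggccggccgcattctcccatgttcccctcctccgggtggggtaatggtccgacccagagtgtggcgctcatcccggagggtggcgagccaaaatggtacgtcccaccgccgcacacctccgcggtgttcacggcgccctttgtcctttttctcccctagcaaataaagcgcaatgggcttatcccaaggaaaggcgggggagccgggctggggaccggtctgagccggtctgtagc
Pgm3: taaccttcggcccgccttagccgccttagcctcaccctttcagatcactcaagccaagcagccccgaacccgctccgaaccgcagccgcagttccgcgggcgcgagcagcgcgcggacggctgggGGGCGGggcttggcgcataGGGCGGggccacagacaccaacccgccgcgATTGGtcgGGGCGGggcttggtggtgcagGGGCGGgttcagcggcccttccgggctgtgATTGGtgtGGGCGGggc
Uap1: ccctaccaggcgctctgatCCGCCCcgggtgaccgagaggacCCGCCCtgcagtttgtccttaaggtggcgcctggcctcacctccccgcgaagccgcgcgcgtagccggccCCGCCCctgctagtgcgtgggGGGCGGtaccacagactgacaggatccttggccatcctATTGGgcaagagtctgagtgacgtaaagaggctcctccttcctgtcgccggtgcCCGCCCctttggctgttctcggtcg

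The Ogt promoter held 1 NRF1 core, which starts at base -142 from the start, and 1 GC box at -102. The Mgea5 promoter held none of the 6 motifs in this window, so the pair shared no match. The Pgm3 promoter held 5 GC boxes and 2 CCAAT matches, and the Uap1 promoter held 5 GC boxes and 1 CCAAT match. Of 17491 protein-coding promoters of that length, 42.7% held a GC box, 36.3% CCAAT, 6.64% the E-box, 2.98% the NRF1 core, 2.01% the cyclic AMP response element and 0.572% the XBP1 core. The GC content was 49.6% for Ogt, 64.4% for Mgea5, 71.6% for Pgm3 and 67.2% for Uap1, against a median of 55.2% over those promoters. Promoters were matched for 8 of the 10 genes, all but Uap1l1 and Gnpda1. Besides Ogt, the promoter of Gnpda2 held the NRF1 core, at -56. The promoters of Gfpt1 and Gfpt2 also held GC boxes and CCAAT matches, and Gfpt1 did not pass in any of the experiments. A match is a description of letters and not evidence of binding.

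Ogt (ENSMUSG00000034160, chrX:101640060-101684351, mm10 as deposited) was measured in all 12 libraries, the knockouts included. It was at 20.8 and 24.7 FPKM in the cKO control libraries and at 11.04 and 12.03 in the Ogt cKO libraries, so the groups did not overlap. Ogt fell by 0.92 on the log2(FPKM + 1) scale (SE 0.30, adjusted p = 0.038, limma with Benjamini-Hochberg adjustment), from 22.7 ± 2.74 to 11.5 ± 0.698 FPKM (SD, n = 2). The value covers the whole gene and does not resolve the floxed exons, so it does not measure how much of the gene was deleted. In 4 wild-type libraries Ogt was below the mean of the knockouts: 7.85 and 10.4 FPKM in the Aβ control, 10.0 in AD control replicate 1 and 10.6 in Aβ-treated replicate 2. AD control replicate 2 was at 22.7 FPKM. The AD model libraries were at 18.3 and 19.9 FPKM (0.32 ± 0.30, SE, adjusted p = 0.55), and the Aβ-treated ones at 12.4 and 10.6 (0.32 ± 0.30, adjusted p = 0.44), without passing the test. With a trend on GC content and gene length removed, the Aβ change was -0.14 (adjusted p = 0.72). Ogt is X-linked. In the 12 libraries Xist was at no more than 0.00658 FPKM and the Y-linked Ddx3y at 2.05 to 12.9. The level of Ddx3y differed by group, at 2.05 and 2.09 FPKM in the Aβ control and 9.78 and 7.86 in the Aβ-treated libraries. All 4 tested sex markers passed as higher with Aβ, where 35.9% of all genes passed. In the Ogt cKO 1 of the 4 was lower, and in the AD model 0 passed. A link of these markers to Ogt was not tested.

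Mgea5 (ENSMUSG00000025220, chr19:45750261-45783520), which removes the sugar, was at 43.4 and 43.0 FPKM in the cKO control and at 16.6 and 15.9 in the Ogt cKO. The groups lay far apart relative to their spread, and Mgea5 fell by 1.36 (SE 0.38, adjusted p = 0.020). It was at 17.9 and 40.6 FPKM in the AD control, 23.6 and 46.1 in 5X APP libraries, 12.3 and 16.5 in the Aβ control, and 21.6 and 19.4 in the Aβ-treated libraries, and it passed in neither experiment (0.28 ± 0.38, SE, adjusted p = 0.68 for AD and 0.49 ± 0.38, adjusted p = 0.33 for Aβ). Within each of the AD groups, replicate 2 was therefore far above replicate 1. For Aβ, Mgea5 did pass in 2 of 13 other settings that kept every library of the compared groups. Ordered by group mean, both genes ran from the Aβ control through the Ogt cKO, Aβ-treated, AD control and AD model groups to the cKO control. For Ogt, the neighbours Ogt cKO and Aβ-treated, Aβ-treated and AD control, and AD control and AD model overlapped. For Mgea5 all neighbours overlapped but the Ogt cKO and Aβ-treated groups.

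**Figure D1:**
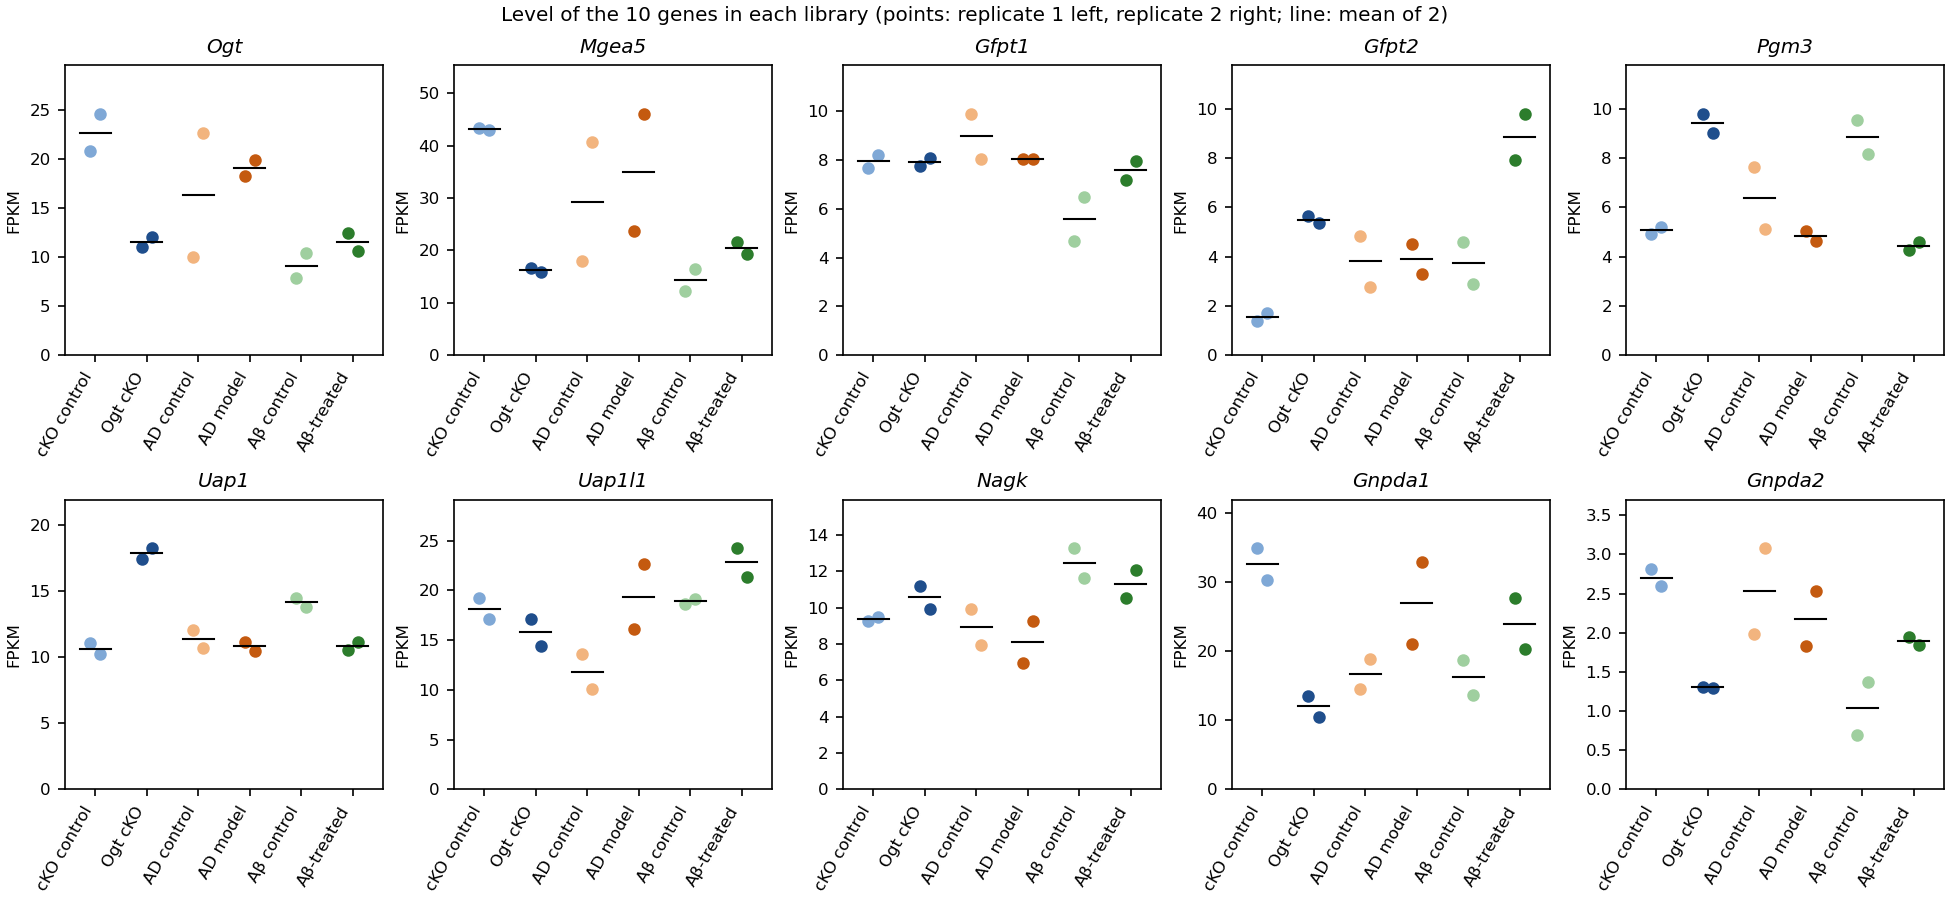
Level in FPKM (vertical axes, from 0) of the 10 genes in the 6 groups; points are libraries and lines are means of 2. Ogt and Mgea5 were lowest in the Aβ control and highest on average in the cKO control, while Gfpt2 was lowest in the cKO control, at 1.38 and 1.72 FPKM.

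Among the 6 control libraries, Ogt and Mgea5 each fell at a low and a high level, and the same libraries were low in both. AD control replicate 1 and both Aβ control libraries had 7.85 to 10.4 FPKM of Ogt and 12.3 to 17.9 of Mgea5. Both cKO control libraries and AD control replicate 2 had 20.8 to 24.7 FPKM of Ogt and 40.6 to 43.4 of Mgea5. The levels divided the AD control group, since replicate 2 exceeded replicate 1 by 1.10 for Ogt and 1.14 for Mgea5 on the log2(FPKM + 1) scale. Because the libraries formed separate clusters of 3, no correlation over the 6 is given. Within them the ratio of Mgea5 to Ogt ran only from 1.56 to 2.09, and it was 1.78 and 1.79 in the AD control libraries, which differed most in level.

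Over all 12 libraries the ratio of Mgea5 to Ogt in FPKM ran from 1.29 to 2.32, a span of 1.79-fold, where Ogt spanned 3.14-fold and Mgea5 3.76-fold. Both extremes of the ratio were AD model libraries: replicate 1 at 1.29 and replicate 2 at 2.32, with Ogt nearly equal in the 2 (replicate 2 higher by 0.12 on the log2 scale) and Mgea5 higher by 0.94 in replicate 2. The ratio was 2.09 and 1.75 in the cKO control and 1.51 and 1.32 in the Ogt cKO, so those groups did not overlap. From replicate 1 to replicate 2, Ogt and Mgea5 differed in the same direction in 4 of 6 groups.

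Of 7308 protein-coding genes with a mean of at least 5 FPKM, Mgea5 ranked 6 in likeness to Ogt (Pearson r of log2(FPKM + 1) 0.942 over 12 libraries). The 5 genes ahead of it were Rsrp1 (0.975), Ddx5 (0.965), Epc1 (0.961), Stk38 (0.947) and Rbm5 (0.946). Ddx5 is an RNA helicase and Rbm5 a splicing regulator. For Mgea5 the leading 5 were Crot (0.975), Rtn3 (0.973), Arrdc3 (0.963), Slc17a5 (0.962) and Vamp4 (0.957), and Ogt ranked 21. These are descriptions over libraries that share the same low and high levels, with no test.

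Other measures of the libraries were looked at after the values of Ogt were seen. The nuclear noncoding RNA Malat1 was at 92.8 and 132 FPKM in the cKO control, 31.3 and 31.6 in the Ogt cKO, 22.8 and 127 in the AD control, 63.2 and 88.1 in those of the AD model, 26.9 and 32.8 in the Aβ control and 26.1 and 15.3 in the Aβ-treated libraries. AD control replicate 2 thus stood with the cKO control in Malat1 as in Ogt, and replicate 1 stood with the Aβ control. Neat1, another nuclear noncoding RNA, was at 28.1 and 33.0 FPKM in the cKO control, 6.83 and 7.73 in the Ogt cKO, 3.28 and 22.7 in the AD control, 9.49 and 17.2 in 5X APP libraries, 5.43 and 6.60 in the Aβ control and 7.47 and 5.99 in the Aβ-treated libraries. Ribosomal protein genes took 2.13% and 2.15% of reads in the cKO control, 3.96% and 3.89% in the Ogt cKO, 3.06% and 2.22% in the AD control, 3.01% and 2.23% in 5X APP libraries, 4.10% and 3.94% in the Aβ control and 2.67% and 3.11% in the Aβ-treated libraries. The sum of reads in genes was also set against the library size behind the FPKM. It was 0.921 and 0.907 of that size in the cKO control and 1.10 and 1.07 in the Ogt cKO. In the AD control it was 1.02 and 0.886, and in the AD model 0.929 and 0.936. The Aβ control had 1.08 and 1.05, and the Aβ-treated libraries 0.999 and 1.02. Libraries with Ogt at 18.3 FPKM or more had at most 0.936, and the others 0.999 or more. The ribosomal share tended to be lower where Ogt was higher, with exceptions. AD model replicate 1 had nearly the ribosomal share of AD control replicate 1 at a higher level of Ogt. Aβ-treated replicate 1 had a lower share than AD model replicate 1 at a lower level of Ogt. The part of these measures in the levels of Ogt and Mgea5 was not tested.

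**Figure D2:**
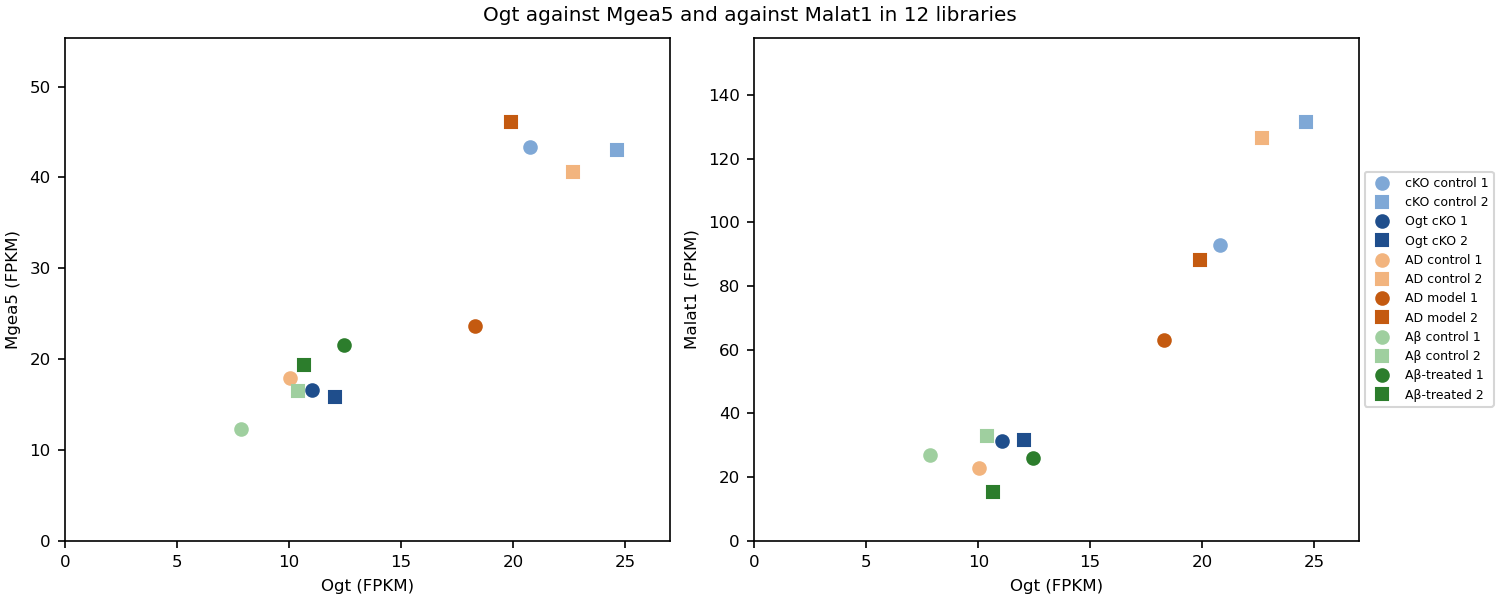
Ogt in FPKM (horizontal axes) against Mgea5 (left) and Malat1 (right), each in FPKM; 1 point per library, circles for replicate 1 and squares for replicate 2. AD control replicate 1, at 10.0 FPKM of Ogt, lies by the Aβ control and Ogt cKO libraries in both panels, and AD control replicate 2, at 22.7, lies by the cKO control.

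The entry enzymes of the hexosamine pathway differed from each other. Gfpt1 (chr6:87042846-87092197) hardly differed between the groups of the cKO experiment, 7.70 and 8.23 FPKM in the cKO control and 7.76 and 8.10 in the Ogt cKO (log2 change -0.01 ± 0.15, SE, adjusted p = 0.98). Gfpt1 was at 9.91 and 8.05 FPKM in the AD control and 8.05 and 8.03 in 5X APP libraries, and at 4.68 and 6.49 in the Aβ control and 7.20 and 7.95 in the Aβ-treated libraries. In the last experiment its groups did not overlap, and the change of 0.39 (SE 0.15) did not pass the test (adjusted p = 0.075). It did pass after rescaling to the total of reads (adjusted p = 0.046) and in voom on the recovered reads, while with a trend on GC content and gene length removed the change was 0.03 (adjusted p = 0.87).

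Gfpt2 (chr11:49794178-49838613) had 1.38 and 1.72 FPKM in the cKO control and 5.63 and 5.37 in the Ogt cKO. It rose by 1.36 (SE 0.25, adjusted p = 0.0048), and since the added 1 shrinks changes of low genes, the ratio of the means was larger, 3.56-fold. In the Aβ experiment Gfpt2 had 4.59 and 2.89 FPKM in the control and 7.92 and 9.80 in the treated libraries, and it rose by 1.07 (SE 0.25, adjusted p = 0.010). The AD groups overlapped, at 4.85 and 2.75 FPKM in the control and 4.51 and 3.27 in the model (0.05 ± 0.25, SE, adjusted p = 0.92). The ratio of Gfpt2 to Gfpt1 was 0.179 and 0.209 in the cKO control and reached 1.10 and 1.23 in the Aβ-treated libraries, the 2 in which Gfpt2 was the more abundant transcript per length.

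Pgm3 and Uap1, which act after the entry step, rose in the Ogt cKO and fell with Aβ. Pgm3 (chr9:86554377-86571842) was at 4.93 and 5.19 FPKM in the cKO control and 9.80 and 9.003 in the Ogt cKO, a rise of 0.78 (SE 0.17, adjusted p = 0.0076). With Aβ it went from 9.56 and 8.17 FPKM to 4.28 and 4.59 and fell by 0.86 (SE 0.17, adjusted p = 0.0043). In neither experiment did the groups overlap. Uap1 (chr1:170141938-170174957) was at 11.0 and 10.2 FPKM in the cKO control and 17.4 and 18.2 in the Ogt cKO, a rise of 0.70 (SE 0.11, adjusted p = 0.0028). With Aβ it went from 14.5 and 13.8 FPKM to 10.5 and 11.1 and fell by 0.36 (SE 0.11, adjusted p = 0.033).

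Neither gene passed the test in the AD experiment. Pgm3 was at 7.64 and 5.13 FPKM in the AD control and 5.04 and 4.63 in the model (-0.32 ± 0.17, SE, adjusted p = 0.24). These groups did not overlap, and the change of Pgm3 ran from -0.57 to -0.07 when 1 library was left out. Uap1 was at 12.02 and 10.7 FPKM against 11.2 and 10.4 (-0.06 ± 0.11, SE, adjusted p = 0.75). Over 12 libraries the Pearson r of Pgm3 and Uap1 was 0.900 on the log2(FPKM + 1) scale, a description of libraries that fall in 6 groups. For both, the Ogt cKO and the Aβ control had the highest group means. Pgm3 overlaps Dopey1 on the opposite strand, a gene at 0.289 to 1.54 FPKM, and whether the counting used strand is not given in the sources used here.

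Uap1l1 (chr2:25359889-25365682) had another pattern than Uap1. It was at 13.6 and 10.0 FPKM in AD control libraries and at 16.1 and 22.6 in those of the model. It rose by 0.66 (SE 0.19, adjusted p = 0.045), the only one of the 10 genes to pass in that experiment. That call was lost with the replicate number as a block. Uap1l1 was at 19.2 and 17.1 FPKM in the cKO control and 17.2 and 14.4 in the Ogt cKO, which overlapped (-0.20 ± 0.19, SE, adjusted p = 0.43). It was at 18.7 and 19.1 FPKM in the Aβ control and 24.3 and 21.3 after Aβ (0.26 ± 0.19, SE, adjusted p = 0.32). The ratio of Uap1l1 to Uap1 was 1.74 and 1.68 in the cKO control and 0.986 and 0.787 in the Ogt cKO, and it went from 1.14 and 0.940 in AD control libraries to 1.44 and 2.17 in those of the model.

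**Figure D3:**
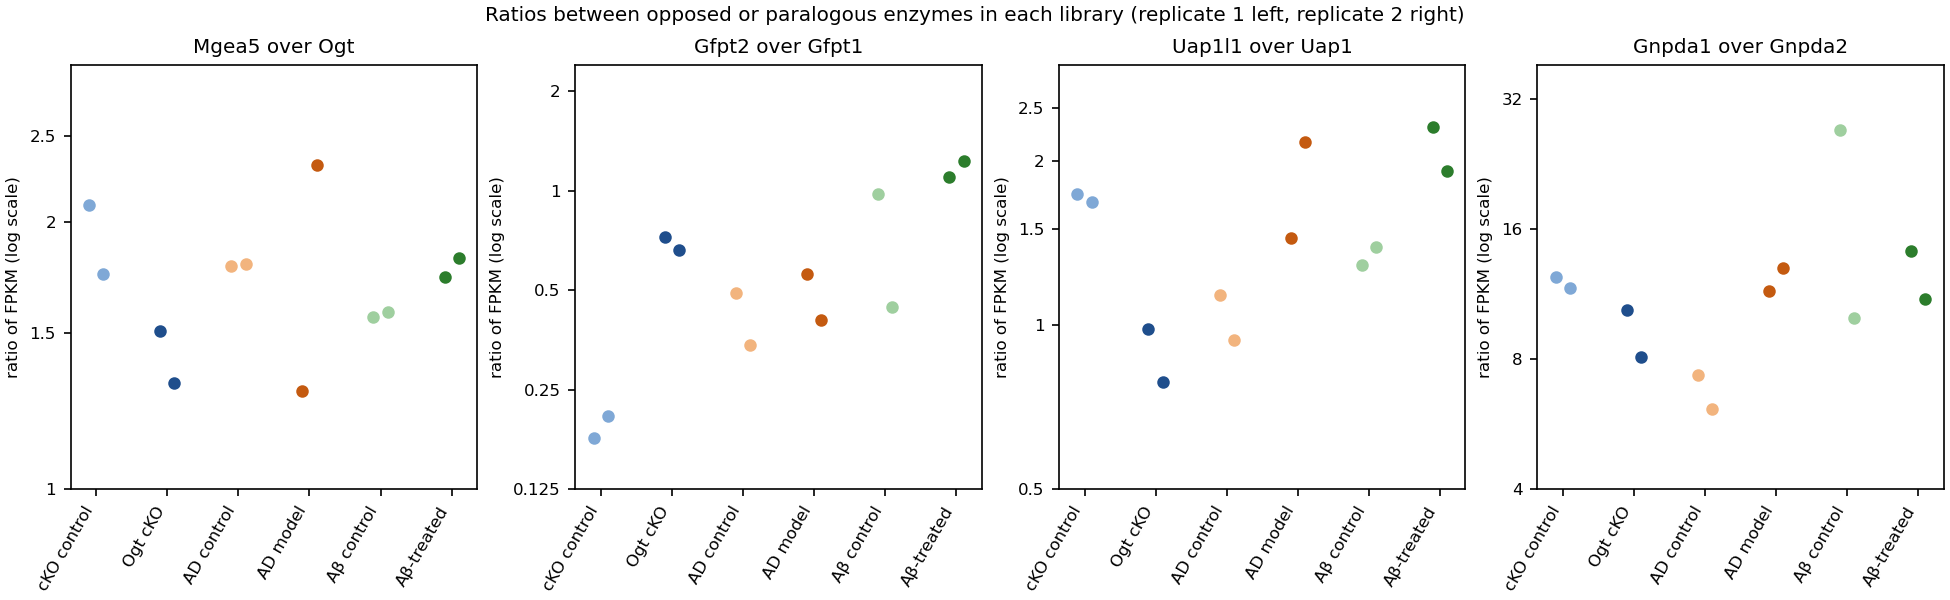
Ratios of FPKM (vertical axes, log scale) between Mgea5 and Ogt and between 3 pairs of paralogs, in the 6 groups; points are libraries. The ratio of Gfpt2 to Gfpt1 runs from 0.179 in a cKO control library to 1.23 in an Aβ-treated one, and that of Mgea5 to Ogt only from 1.29 to 2.32.

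Nagk (chr6:83794982-83804018), the salvage kinase, passed the test in none of the 3 experiments. It was at 9.27 and 9.51 FPKM in the cKO control and 11.2 and 9.92 in the Ogt cKO (0.15 ± 0.16, SE, adjusted p = 0.47). The AD control had 9.94 and 7.96 FPKM and the model 6.94 and 9.27 (-0.13 ± 0.16, SE, adjusted p = 0.65). The Aβ control had 13.3 and 11.6 FPKM and the treated libraries 10.5 and 12.1 (-0.13 ± 0.16, SE, adjusted p = 0.55).

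Both deaminases, which draw sugar phosphate out of the pathway, fell in the Ogt cKO. Gnpda1 was at 35.0 and 30.4 FPKM in the cKO control and 13.6 and 10.5 in the Ogt cKO, and fell by 1.38 (SE 0.26, adjusted p = 0.0050). Gnpda2 (chr5:69573108-69592340) was at 2.82 and 2.59 FPKM in the control and 1.31 and 1.30 in the knockout, and fell by 0.69 (SE 0.21, adjusted p = 0.028). In the AD experiment Gnpda1 was at 14.6 and 18.9 FPKM in the control and 21.1 and 33.0 in the model, which did not overlap, without passing the test (0.64 ± 0.26, SE, adjusted p = 0.14). Gnpda2 was at 1.99 and 3.09 against 1.83 and 2.53 FPKM there (-0.14 ± 0.21, SE, adjusted p = 0.71).

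With Aβ, Gnpda1 went from 18.7 and 13.7 FPKM to 27.7 and 20.3 (0.54 ± 0.26, SE, adjusted p = 0.13) and Gnpda2 from 0.690 and 1.38 to 1.94 and 1.84 (0.53 ± 0.21, SE, adjusted p = 0.075). Neither passed the test, although the groups did not overlap for either gene. Gnpda1 exceeded Gnpda2 in every library, by 6.12-fold in AD control replicate 2 to 27.1-fold in Aβ control replicate 1, where Gnpda2 was lowest. Over 12 libraries the Pearson r of Gnpda2 and Mgea5 was 0.913 on the log2(FPKM + 1) scale, and both differed in the same direction between replicates in 6 of 6 groups, a description with no test. With a trend on GC content and gene length removed, the change of Gnpda2 with Aβ was -0.05 (adjusted p = 0.84). Gnpda2 overlaps Guf1 on the opposite strand, a gene at 0.422 to 2.67 FPKM.

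Counted together, 7 of 10 genes passed the test in the Ogt cKO (3 higher, Gfpt2, Pgm3 and Uap1, and 4 lower, Ogt, Mgea5, Gnpda1 and Gnpda2), where 42.3% of all genes tested did, 22.6% higher and 19.8% lower. The libraries of the groups did not overlap for 8 of the 10, against 83.9% of all genes tested. The median absolute log2 change was 0.74 for the 10 and 0.46 over all genes. Leaving out any 1 of the 4 libraries left 3 or 4 calls, and 13.3% to 22.9% of all genes passed in those fits. Gfpt2, Uap1 and Gnpda1 passed in each of these fits, and Pgm3 in all but the one without Ogt cKO replicate 1 (adjusted p = 0.057). Ogt (adjusted p = 0.085 to 0.17), Mgea5 (0.077 to 0.090) and Gnpda2 (0.098 to 0.11) passed in none of them, nor with no filter on low values, and Ogt and Gnpda2 also not once a trend on GC content and gene length was removed.

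Beside these changes, 5 of 8 astrocyte markers and 5 of 10 microglia and macrophage markers were lower in the Ogt cKO and none higher, while 4 of 7 tested pericyte and smooth muscle markers, 6 of 7 endothelial and 3 of 4 proliferation markers were higher and none lower. Of 8 oligodendrocyte lineage markers, 5 were lower and 1 higher. The sum of 5 mesothelial and epithelial markers was 0.443 to 1.83 FPKM in the control and 154 to 168 in the knockout, with Krt8 at 0 in both groups and Upk3b at 0 in the control. That sum was also high, 130 to 199 FPKM, in the untreated wild-type Aβ control, and 7.08 to 15.3 in the AD control. The part of the marker shifts in the changes of the 10 genes was not tested.

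In the AD experiment 1 of 10 genes passed (Uap1l1, higher), against 17.1% of all genes tested (9.80% higher, 7.27% lower). The groups did not overlap for 4 of the 10, against 44.8% of all genes tested. The 10 had a median absolute log2 change of 0.21, against 0.26 over all genes. With the replicate number as a block, Uap1l1 did not pass and Gnpda1 did. The Uap1l1 call was lost without AD control replicate 2 (adjusted p = 0.19) and without AD model replicate 2 (0.18). Leaving out AD control replicate 2, the library high in Ogt, gave a call for Ogt, higher in the model by 0.87 (adjusted p = 0.021), and for Pgm3 (adjusted p = 0.034). Without AD model replicate 1, Gnpda1 passed (adjusted p = 0.047). Of the markers, 8 of 10 of microglia and macrophages were higher in the AD model and 2 of 8 of astrocytes lower. Lower in it were also 5 of 7 tested pericyte and smooth muscle markers and 3 of 5 fibroblast markers, while 3 of 4 proliferation markers were higher, and of 8 oligodendrocyte lineage markers 3 were higher and 3 lower. The part of these shifts was not tested.

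In the Aβ experiment 3 of 10 genes passed (Gfpt2 higher, Pgm3 and Uap1 lower), against 35.9% of all genes tested (20.8% higher, 15.1% lower). The groups did not overlap for 9 of the 10, against 76.8% of all genes tested. The 10 had a median absolute log2 change of 0.44, against 0.42 over all genes. Pgm3 passed when any 1 of the 4 libraries was left out and Uap1 in none of these fits (adjusted p = 0.067 to 0.15). Gfpt2 lost its call without Aβ control replicate 2 (0.067) and without Aβ-treated replicate 2 (0.068). Without Aβ control replicate 2, Gfpt1 (0.025) and Gnpda2 (0.036) passed. Here 6 of 7 tested pericyte and smooth muscle markers were lower, none higher, and 5 of 7 endothelial ones higher, none lower. Of 8 oligodendrocyte lineage markers 5 were higher and 1 lower, of 10 microglia and macrophage markers 4 and 1, of 8 astrocyte markers 2 and 1, and of 4 proliferation markers 2 and 0. Of 5 fibroblast markers 1 was higher and 3 lower, and both tested mesothelial and epithelial markers were lower. The part of these shifts was not tested.

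**Figure D4:**
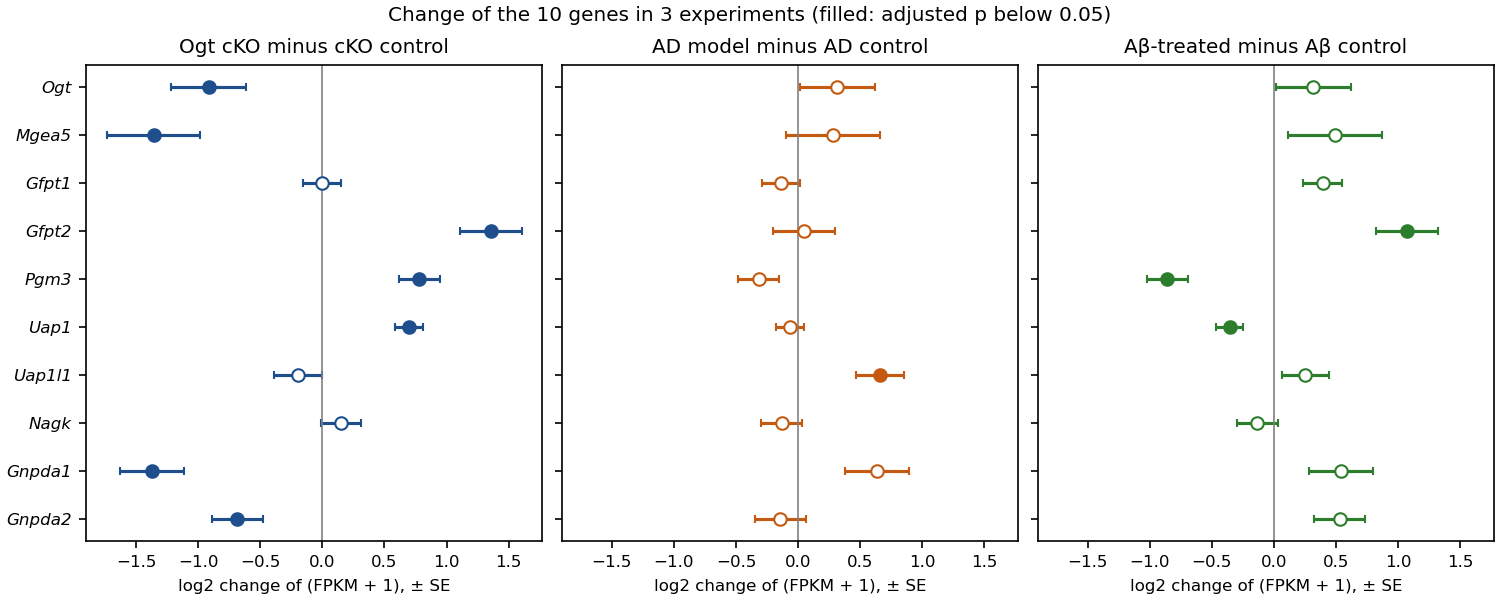
Change of each gene (log2 of FPKM + 1, horizontal axes) in the 3 experiments, with the standard error; filled points passed an adjusted p of 0.05. Pgm3 and Uap1 lie at 0.78 and 0.70 in the Ogt cKO and at -0.86 and -0.36 with Aβ.

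Contrasts of the same fit compared the effects directly. The effect of the Ogt cKO differed from that of the AD model for 5 of 10 genes (background 25.6%). It was the higher for Gfpt2, Pgm3 and Uap1 and the lower for Uap1l1 and Gnpda1. For Ogt itself the difference was -1.23 ± 0.43 (SE, adjusted p = 0.063) and for Mgea5 -1.64 ± 0.53 (adjusted p = 0.051). Against the Aβ effect, 6 of 10 differed (background 52.3%), with Pgm3 and Uap1 higher in the cKO contrast and Ogt, Mgea5, Gnpda1 and Gnpda2 lower. With a trend on GC content and gene length removed, the differences for Ogt (-0.53, adjusted p = 0.27) and Gnpda2 (-0.36, adjusted p = 0.24) did not pass, nor did that for Ogt without the filter on low values (0.085). Gfpt2, which rose in both experiments, had a difference of 0.28 ± 0.35 (SE, adjusted p = 0.52), an interval that includes sizeable differences. For the AD and Aβ effects limma called 0 of 10 genes different (background 6.14%), with 4 at an unadjusted p below 0.05, and voom called 0.

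The control groups, which differ in the mice's age and, for the cKO control, in genotype, were not alike in these genes. Against the cKO control, the Aβ control had 8 of 10 genes past the test (background 45.7%). Ogt (-1.23 ± 0.30, SE), Mgea5 (-1.54 ± 0.38), Gfpt1 (-0.46 ± 0.15), Gnpda1 (-0.98 ± 0.26) and Gnpda2 (-0.89 ± 0.21) were lower in it, and Gfpt2 (0.88 ± 0.25), Pgm3 (0.70 ± 0.17) and Uap1 (0.38 ± 0.11) higher. Without 1 library the count ran from 0 to 7, and it was 0 without cKO control replicate 2, where 17.8% of all genes passed. Gfpt1 passed in 8 of 12 other settings, and removing the trend on GC content and gene length left a change of -0.04 (adjusted p = 0.83) and also ended the call of Gnpda2 (-0.43, adjusted p = 0.071). That of Uap1 ended after rescaling to the total of reads (0.18, adjusted p = 0.18), and that of Gfpt2 without the filter on low values (0.053). The knockout comparison uses the same cKO control libraries. Side by side, its changes were -0.92 for Ogt, -1.36 for Mgea5, -0.01 for Gfpt1, -1.38 for Gnpda1, -0.69 for Gnpda2, 1.36 for Gfpt2, 0.78 for Pgm3 and 0.70 for Uap1. Age, experiment and genotype cannot be told apart in comparisons between control groups.

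Between the AD control and the cKO control limma called 0 of 10 genes (background 7.98%), with 3 at an unadjusted p below 0.05, and voom called 1, Gnpda1. Without AD control replicate 2 there were 5 calls, Gfpt2, Gnpda1, Mgea5, Ogt and Pgm3. Between the Aβ control and the AD control 3 genes passed (background 32.2%), Gfpt1 (-0.61 ± 0.15, SE) and Gnpda2 (-0.80 ± 0.21) lower and Uap1l1 (0.65 ± 0.19) higher in the Aβ control. With the trend on GC content and gene length removed none of these 3 passed, at -0.11 for Gfpt1 (adjusted p = 0.61), -0.13 for Gnpda2 (0.59) and 0.45 for Uap1l1 (0.12). That count was 7 without AD control replicate 1, with Ogt and Mgea5 among them, and 0 without Aβ control replicate 1.

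The wider pathway was read from 5 lists of 59 genes, 55 of them tested. Of 9 genes that supply glucose and glutamine, the glucose transporter Slc2a1 was higher in each experiment, from 24.3 to 46.7 FPKM in the Ogt cKO (0.92 ± 0.22, SE, adjusted p = 0.012), from 30.4 to 66.9 in the AD model (1.12 ± 0.22, adjusted p = 0.0087) and from 42.2 to 124 with Aβ (1.54 ± 0.22, adjusted p = 0.0010). In the Ogt cKO, hexokinase Hk2 was also higher (1.75 ± 0.45), and glutamine synthetase Glul (-1.70 ± 0.23) and the amino acid transporter Slc38a2 (-1.59 ± 0.25) were lower. Of 8 astrocyte markers 5 were lower in the same libraries, and their part was not tested. In the untreated wild-type Aβ control the means were 42.2 FPKM for Slc2a1, 16.1 for Hk2, 75.1 for Glul and 9.91 for Slc38a2. Those of the Ogt cKO were 46.7, 14.6, 77.6 and 12.5. With Aβ, Glul (0.89 ± 0.23) and Slc38a2 (1.41 ± 0.25) were higher. The list counted 2 higher and 2 lower, 1 and 0, and 3 and 0 in the cKO, AD and Aβ experiments, with medians of 0.16, 0.24 and 0.17. Over all genes 42.3%, 17.1% and 35.9% passed in these experiments, the shares against which this count and those of the lists that follow are read.

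Of 11 tested genes for other steps to and from UDP-GlcNAc, the Ogt cKO had 1 higher and 2 lower, and the AD and Aβ experiments 1 higher and 0 lower each. Nans, of sialic acid synthesis, rose in the Ogt cKO (1.17 ± 0.21, SE), where Ugp2 fell (-0.69 ± 0.16). Slc35a3, a carrier of UDP-GlcNAc into the Golgi, fell in the Ogt cKO (-0.39 ± 0.13) and rose with Aβ (0.96 ± 0.13). In FPKM, Nans, Ugp2 and Slc35a3 averaged 27.2, 19.2 and 1.25 in the Ogt cKO. Their means in the untreated wild-type Aβ control were 28.3, 17.3 and 1.09. Renbp was the 1 gene higher in the AD model (0.80 ± 0.21). The medians were -0.03, 0.07 and 0.06.

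Of 23 tested enzymes that use UDP-GlcNAc or build glycan chains, the Ogt cKO had 5 higher and 3 lower, the AD model 2 and 3, and Aβ 4 and 7, with medians of 0.10, -0.10 and 0.07. Mgat3, which adds the bisecting GlcNAc of N-glycans, fell in each experiment, from 20.8 to 7.29 FPKM in the Ogt cKO (-1.39 ± 0.15, SE), 17.7 to 5.86 in the AD model (-1.46 ± 0.15) and 7.23 to 3.57 with Aβ (-0.84 ± 0.15). The branching enzymes Mgat5 (-1.04 ± 0.12) and Mgat4a (-0.60 ± 0.18) also fell in the Ogt cKO, where Gcnt2, a branching enzyme of poly-N-acetyllactosamine chains, rose (0.81 ± 0.22). Mgat5, Mgat4a and Gcnt2 averaged 10.3, 0.740 and 4.12 FPKM in the Ogt cKO, and 10.6, 0.684 and 4.46 in the untreated wild-type Aβ control. Mgat5 was at 22.4 FPKM in the cKO control and 11.1 in the AD control. The other genes that rose in the Ogt cKO, named after their values were seen, were Eogt (0.62 ± 0.22), Mgat2 (0.38 ± 0.14), Ext1 (0.50 ± 0.15) and the hyaluronan synthase Has2 (3.48 ± 1.13, limma adjusted p = 0.036). Has2 went from 0.322 to 13.8 FPKM. Its mean was 8.95 ± 11.9 (SD, n = 2) in the AD control, 11.6 ± 13.7 in the AD model and 5.62 ± 1.26 in the Aβ control. Eogt, Mgat2 and Ext1 averaged 7.46, 60.3 and 25.7 FPKM in the Ogt cKO, and 5.98, 61.5 and 20.0 in the Aβ control. In the AD model Piga rose (0.59 ± 0.14), and Chsy1 (-0.64 ± 0.15) and Extl3 (-0.54 ± 0.15) fell. With Aβ, Mgat4a (1.45 ± 0.18) and the fringe gene Mfng (1.99 ± 0.41) rose and Rfng fell (-0.71 ± 0.15).

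Of 4 lysosomal genes that release GlcNAc, 1 was higher and 2 lower in the Ogt cKO (median -0.43). Hexa fell from 345 to 111 FPKM (-1.64 ± 0.27, SE) and Naglu from 54.0 to 26.9 (-0.98 ± 0.34), and Aga rose (1.05 ± 0.19). Microglia and macrophage markers were lower in the same libraries, and their part was not tested. The untreated wild-type Aβ control had means of 136, 31.8 and 49.7 FPKM for Hexa, Naglu and Aga, and Aga was at 46.0 in the Ogt cKO. In the AD model the changes ran from -0.06 for Aga to 0.46 for Naglu, with adjusted p between 0.12 and 0.87. The chitobiase Ctbs rose with Aβ (0.53 ± 0.14). The medians were 0.30 and 0.29 in the AD and Aβ experiments.

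Among 8 factors that act on hexosamine genes or read glucose, the Ogt cKO had 2 higher and 2 lower, and the AD and Aβ experiments 2 higher and 0 lower each, with medians of 0.11, -0.04 and 0.18. Txnip, a glucose-responsive inhibitor of glucose uptake, fell in the Ogt cKO from 218 to 38.3 FPKM (-2.48 ± 0.47, SE). The stress sensor Atf6 fell there too (-0.72 ± 0.16). The untreated wild-type Aβ control was at 38.4 FPKM of Txnip, and the AD control at 74.9 ± 58.0 (SD, n = 2). Atf6 averaged 4.26 FPKM in the Ogt cKO and 3.35 in the Aβ control. Atf4 (0.50 ± 0.17) and Nr4a1 (1.03 ± 0.34), known activators of Gfpt1 and Gfpt2 in turn, rose in the Ogt cKO. Gfpt1 hardly changed there (-0.01 ± 0.15), while Gfpt2 rose (1.36 ± 0.25). With Aβ, Gfpt2 also rose (1.07 ± 0.25). The mean of Nr4a1 went from 13.5 to 7.21 FPKM with Aβ, without passing the test (-0.82 ± 0.34, adjusted p = 0.091). A link between these factors and Gfpt1 or Gfpt2 was not tested. The Txnip relative Arrdc4 rose in the AD model (1.34 ± 0.17) and with Aβ (1.92 ± 0.17), and Atf6 rose with Aβ (0.79 ± 0.16). Mlxip rose in the AD model (0.56 ± 0.16).

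**Figure D5:**
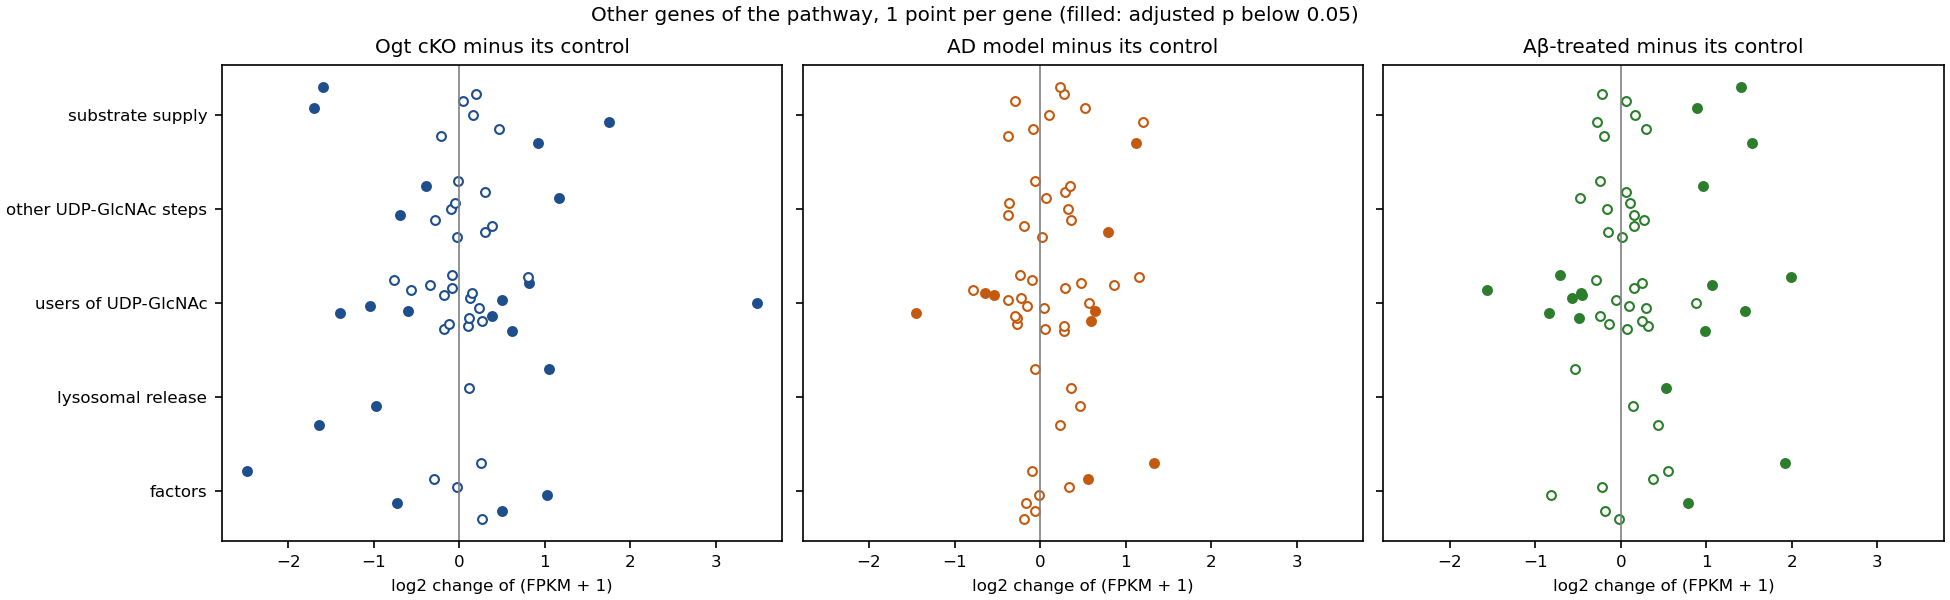
Change of the 55 tested genes of 5 pathway lists (log2 of FPKM + 1, horizontal axes) in the 3 experiments; 1 point per gene, filled where the adjusted p was below 0.05. The lysosomal list has 2 filled points below 0 in the Ogt cKO, and the substrate list has 3 above 0 with Aβ.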

How the data were processed

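RNA was measured in 12 libraries, grouped by the labels. The authors deposited 1 table of FPKM per gene with gene lengths, on mm10 per the submitters' processing notes. For the aligner, counting tool and strand setting, the sources used here give nothing. FPKM times length gave whole reads for 100% of values (within 0.1 read), 16418852 to 18705309 per library, and 3 reads on 1 kilobase equal 0.145 to 0.191 FPKM. Relative to the size by which the FPKM had been divided, this sum was 0.886 to 1.098.

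The fit used limma 3.58.1 (R 4.3.3) and log2(FPKM + 1), with 1 mean per group, all 12 libraries sharing the spread (6 residual and 2.92 prior degrees of freedom), an intensity trend, two-sided, Benjamini-Hochberg over 14014 genes, called at 0.05. The script was tested on simulated data. The 10 genes and the pathway and marker lists were chosen with earlier results of these data known; 2 genes of the pathway lists are not reported here. All 10 are named in each experiment, with up to 4 called genes per pathway list by adjusted p, and the 5 genes most like Ogt and Mgea5. Alternatives were pseudocounts of 0.1 and 0.5, no filter or 5 FPKM, other scalings, voom on recovered reads (TMM factors), a replicate block, robust fits, a trend on GC and length removed, the compared libraries alone, and leaving out each library. Promoters come from RefSeq (GRCm38.p6). Protein sequences were not used here. Plots used matplotlib 3.10.9.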

Additional observations from a re-analysis of the deposited data

Results flagged for a closer look

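The effect of the Ogt cKO differed, by a contrast of the fit (limma, adjusted p below 0.05), from the effect of the AD model for 5 of the 10 genes and from that of Aβ for 6, where 25.6% and 52.3% of all genes did. Against the AD model, the difference was 1.30 ± 0.35 (SE, log2 scale) for Gfpt2, 1.10 ± 0.23 for Pgm3, 0.76 ± 0.15 for Uap1, -0.86 ± 0.27 for Uap1l1 and -2.01 ± 0.36 for Gnpda1. Only for Pgm3, Uap1, Uap1l1 and Gnpda1 were the effects of opposite sign, as Gfpt2 had 1.36 in the cKO and 0.05 in the AD model. Of these 4 genes, Pgm3, Uap1 and Gnpda1 did not pass in the AD experiment itself, nor Uap1l1 in the cKO experiment. Gnpda1 passed in each fit that left out 1 library. Pgm3 lost its call only without Ogt cKO replicate 1 (adjusted p = 0.052), and Uap1 only without cKO control replicate 2 (0.052). Uap1l1 lost its call without AD control replicate 2 (adjusted p = 0.089), without AD model replicate 2 (0.12) and without each of the 4 cKO experiment libraries (0.081 to 0.15), and Gfpt2 lost it without 6 of the 8 libraries (0.068 to 0.088).

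Against Aβ, the difference was -1.23 ± 0.43 for Ogt, -1.85 ± 0.53 for Mgea5, 1.64 ± 0.23 for Pgm3, 1.05 ± 0.15 for Uap1, -1.91 ± 0.36 for Gnpda1 and -1.22 ± 0.29 for Gnpda2. The fitted effects were of opposite sign for all 6, but those of Aβ on Ogt, Mgea5, Gnpda1 and Gnpda2 did not pass. With a trend on GC content and gene length removed, the Aβ effects on Ogt (-0.14) and Gnpda2 (-0.05) had the sign of the cKO effects, and the differences for both lost their calls (adjusted p = 0.27 and 0.24). Pgm3, Uap1, Gnpda1 and Gnpda2 passed in each fit that left out 1 of the 8 libraries, whereas Ogt passed only in the fit without Aβ control replicate 2 and Mgea5 failed without Aβ control replicate 1 and without Aβ-treated replicate 1.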

How the results depend on the processing

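No change of the 10 genes turned direction while called. Without the filter, 4 genes passed in the cKO experiment, 0 in the AD experiment, 3 for the difference of the cKO and AD effects and 1 between the Aβ and AD controls, and of all genes 16.1%, 6.92%, 8.54% and 12.1% did. With only the libraries compared, these were 0 for AD, 3 for that difference and 0 for those controls (1.98%, 14.8% and 7.36% of all genes). Voom on the recovered reads called 1 gene between the AD and cKO controls. Quantile normalization and removal of the GC and length trend each left 1 between the Aβ and AD controls, Gfpt1 and Pgm3 in turn. In the cKO experiment removing that trend ended the calls of Ogt (adjusted p = 0.072) and Gnpda2 (0.082), and in the Aβ experiment that of Gfpt2 (0.061). Rescaling to the total of reads moved the median of all genes in the cKO experiment from 0.00 to -0.19, and the share of higher calls among all genes from 53.3% to 35.5%, while the members' 3 higher and 4 lower calls were kept. It turned the Aβ calls from 1 higher and 2 lower to 2 higher and 1 lower (Uap1 lost at 0.062, Gfpt1 gained), voom gave 2 and 2, and the calls between the Aβ and AD controls went from 1 higher and 2 lower to 0 and 2. The median of all genes also moved from -0.03 to -0.20 between the Aβ and cKO controls and from 0.05 to -0.06 between the Aβ and AD controls. Quantile normalization moved it from -0.04 to -0.13 in the Aβ experiment and the share of higher calls there from 58.0% to 47.4%. Voom and pseudocounts made no call of the cKO experiment fail.

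Leaving out 1 library gave 3 to 4 calls for the cKO, 0 to 2 for AD, 1 to 3 for Aβ, 2 to 6 for the cKO and AD difference, 4 to 7 for the cKO and Aβ difference, 0 to 1 for the AD and Aβ difference, 0 to 5 between the AD and cKO controls, 0 to 7 between the Aβ and cKO controls and 0 to 7 between the Aβ and AD controls. The lone library is then assumed to vary like the other groups. The labels tie no replicate number to a shared animal or day. Same-numbered libraries deviated together in the AD experiment (correlation of deviations 0.551) but not in the cKO (0.033) and Aβ (-0.169) experiments. The main fit did not take the numbers to pair the libraries, although those of the AD experiment may share a deviation by number. With the replicate number as a block, Gnpda1 passed in the AD experiment (adjusted p = 0.012) and Uap1l1 did not (0.066), 7 genes passed for Aβ and 3 between the AD and cKO controls, and with the numbers crossed, an alternative added after seeing the data, 5 passed for Aβ. The cause of these changes was not tested. The planned correlation of Ogt and Mgea5 over the 6 control libraries was computed as a likeness only and is not given, nor tested, because the libraries formed separate clusters. Counting error was at most 11.2% of any value of the 10 genes.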
